A study of Mus musculus with 19 samples.

Results

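The Hox genes encode homeodomain transcription factors that lie in 4 clusters in the mouse, on chromosomes 6 (HoxA), 11 (HoxB), 15 (HoxC) and 2 (HoxD). Genes at the same place in different clusters are paralogues and share a number. Low numbers are switched on early and towards the head in the embryo, high numbers later and towards the tail, and many adult connective tissues keep the Hox code of the position where their cells arose. Fibroblasts are the best-known case, and the code has been used to tell fibroblasts of different body sites apart. The members were taken by name: every protein-coding mouse gene whose symbol is Hox followed by a cluster letter and a number. This gave 39 genes among the 51707 genes summed, of which 11 belong to cluster A, 10 to B, 9 to C and 9 to D.

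The 19 RNA-seq libraries come from cells sorted from mouse pancreatic ductal adenocarcinomas, grown in C57BL/6J mice from T-LOH KPC organoids implanted in the pancreas. All mice were treated for 2 weeks, with neratinib, an irreversible inhibitor of the ERBB receptor kinases, or with vehicle. There were 4 neratinib and 4 vehicle libraries of podoplanin-positive (PDPN+) cells, labelled as cancer-associated fibroblasts, and 5 neratinib and 6 vehicle libraries of EpCAM+ cells, labelled as epithelial cells. The tumours of every group, vehicle included, grew from such organoids. How many organoid lines were implanted is not given in the sources used here, and no library of normal pancreas was analysed. N and V before a 5-digit number mark neratinib and vehicle libraries. The number was read as the mouse, which is an inference. It occurs in both populations for 8 numbers and in EpCAM+ libraries alone for 3. Values in every library are given in the order N53178, N53180, N53184 and N53194 for PDPN+ neratinib, V53175, V53179, V53185 and V53188 for PDPN+ vehicle, and N53178, N53180, N53184, N53193 and N53194 for EpCAM+ neratinib.

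By fibroblast and epithelial markers the sorts matched their labels. The 8 fibroblast marker genes summed to between 10886 and 16737 TPM (a level corrected for transcript length and scaled to the same total in each library) in PDPN+ libraries, against 13.1 to 127 TPM in EpCAM+ libraries. The 8 epithelial markers summed to between 286 and 1203 TPM in PDPN+ libraries, against 18098 to 24884 TPM in EpCAM+ libraries. The 4 islet markers summed to 1463, 2915 and 4313 TPM in EpCAM+ N53178, V53175 and V53176. In the other EpCAM+ libraries they summed to 121 to 712 TPM. The 5 acinar markers summed to 0.188 to 1218 TPM in EpCAM+ libraries, with medians of 0.812 TPM under neratinib and 166 TPM under vehicle. The part of islet and acinar RNA in the Hox values was not tested. Libraries held 30.3 to 48.1 M gene reads in PDPN+ and 39.4 to 75.4 M in EpCAM+. Genes with at least 10 reads numbered 11924 to 18602 in PDPN+ and 16542 to 17984 in EpCAM+, and mitochondrial genes took 6.14 to 19.4% of gene reads in PDPN+ and 2.15 to 2.89% in EpCAM+. The PDPN+ libraries V53175 and V53188 had the fewest detected genes, 12102 and 11924, and the EpCAM+ libraries N53178, V53175 and V53176 were known from earlier work on these data to stand apart. The counts of each neratinib comparison are given with and without those of its own population. In bulk libraries fewer cells that express a gene and less of its RNA per cell cannot be told apart. Hox reads were few in both populations: 1521 to 8608 per PDPN+ library and 86 to 1040 per EpCAM+ library.

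**Figure D1:**
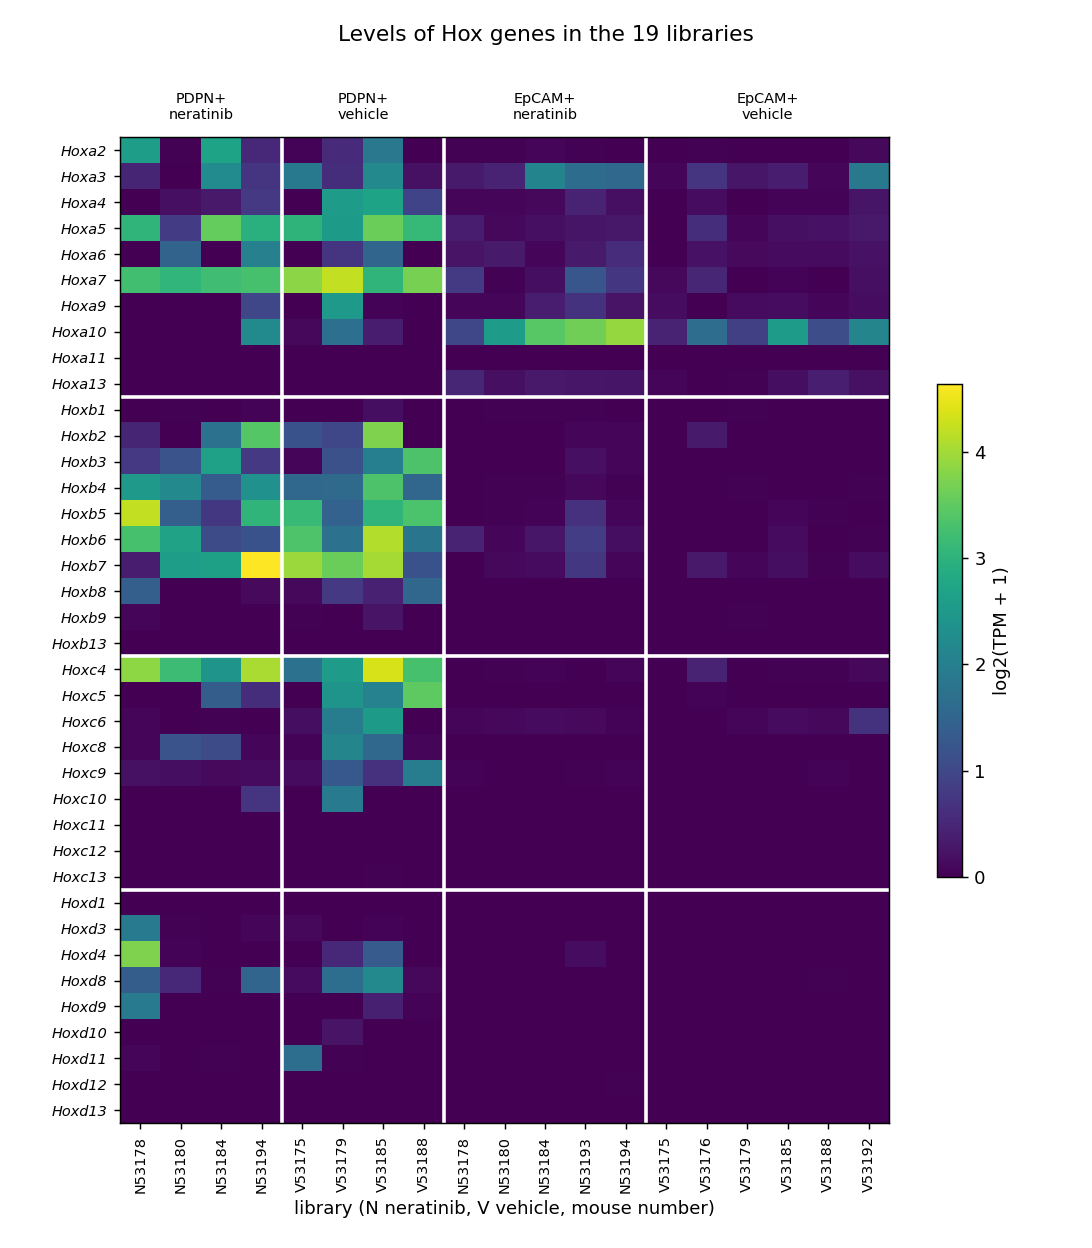
Levels of Hox genes (rows, by cluster and paralogue number) in the 19 libraries (columns, by group), as log2(TPM + 1). PDPN+ libraries hold signal in clusters A, B and C around paralogues 4 to 8, while EpCAM+ libraries hold it almost wholly in cluster A, with Hoxa10 as the leading gene in each of the 11 libraries.

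To examine which positional code each population carried, the Hox level was first summed. In PDPN+ libraries it came to 88.4, 36.9, 51.9 and 90.9 TPM under neratinib and 63.1, 78.7, 134 and 68.3 TPM under vehicle. In EpCAM+ libraries it came to 3.54, 6.17, 15.9, 20.0 and 18.5 TPM under neratinib and ranged from 0.834 to 8.28 TPM under vehicle. Every PDPN+ library thus lay above every EpCAM+ library, and within PDPN+ the treatments overlapped.

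The make-up differed too. Paralogues 4 to 8 took 83.0 ± 8.44% of the Hox TPM in PDPN+ libraries (SD, n = 8; range 66.8 to 96.0%) and 18.9 ± 12.2% in EpCAM+ libraries (n = 11; range 5.52 to 47.6%). Paralogues 9 to 13 took 4.18 ± 4.61% in PDPN+ libraries and 63.0 ± 15.9% in EpCAM+ libraries. Neither share overlapped between the populations. By cluster, PDPN+ libraries drew 34.0 ± 11.2% from HoxA, 41.7 ± 10.3% from HoxB, 19.6 ± 8.63% from HoxC and 4.65 ± 7.25% from HoxD. EpCAM+ libraries drew 91.9 ± 4.84% from HoxA, 4.80 ± 4.05% from HoxB, 3.06 ± 2.76% from HoxC and 0.261 ± 0.449% from HoxD. These shares are given as descriptions, since the members were grouped with earlier results of these data in view.

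**Figure D2:**
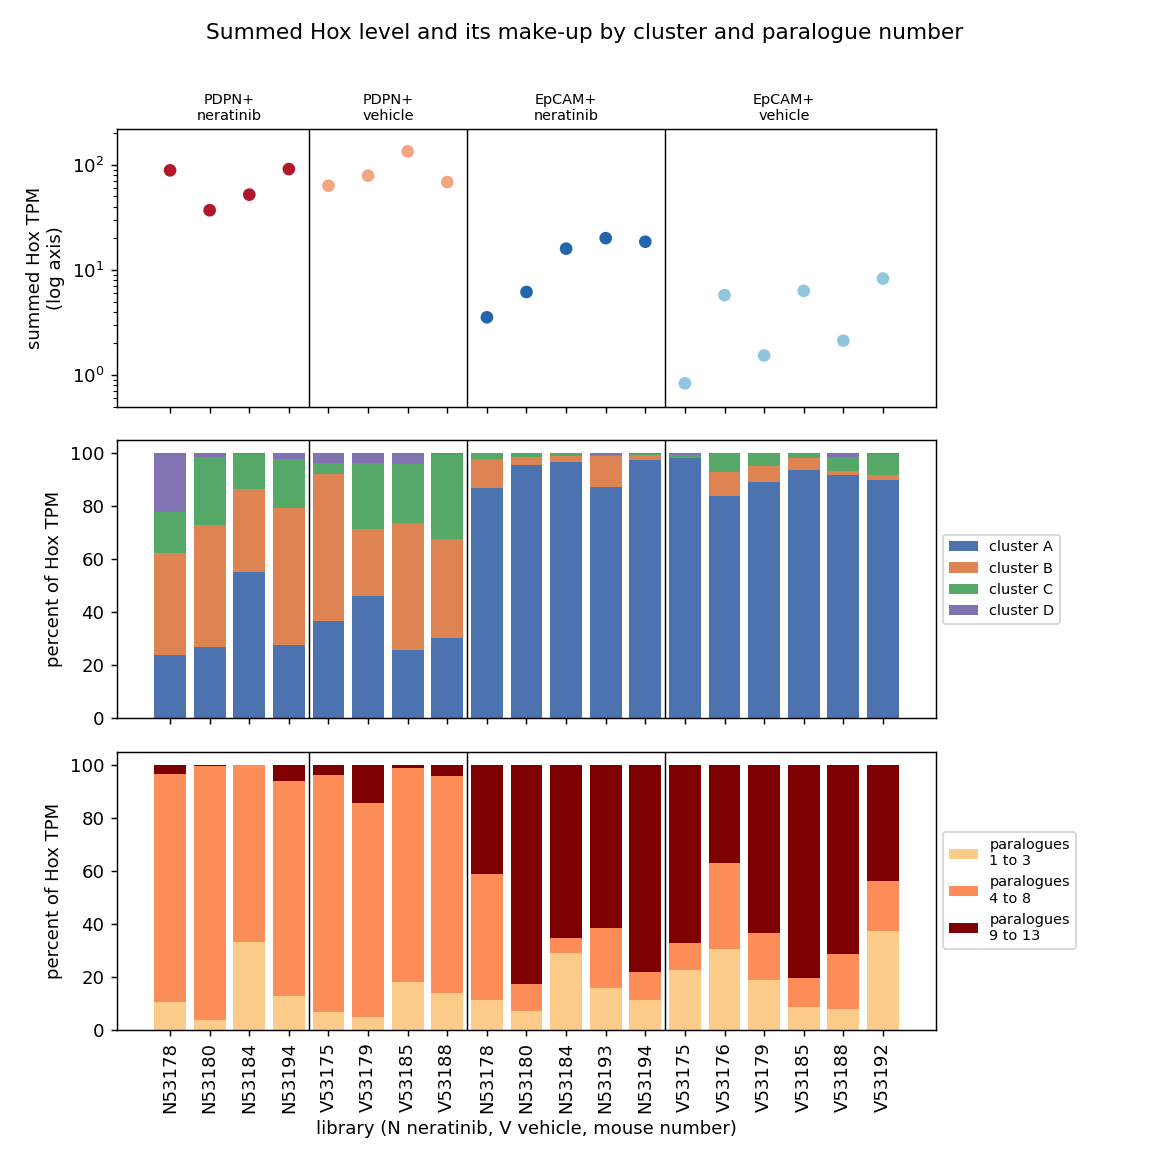
Summed Hox TPM per library on a log axis (top), its make-up by cluster (middle) and by paralogue class (bottom), in percent of the library's Hox TPM. All 8 PDPN+ libraries draw at least 66.8% from paralogues 4 to 8, whereas all 11 EpCAM+ libraries draw at least 84.0% from HoxA.

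Of the 39 members, 22 had enough reads for the test between populations (edgeR, quasi-likelihood, Benjamini-Hochberg adjustment over all 19626 genes tested). In PDPN+ against EpCAM+ libraries 17 rose and 1, Hoxa13, fell at an adjusted p under 0.05. Of all genes tested, 24.3% rose and 25% fell, and 49.3% passed in either direction. The median log2 difference was 6.43 over the 22 members and -0.13 over all genes, or 5.88 over the members when the 3 genes with no read in one population are set at the least difference their reads allow. A member with reads in one population alone can pass the read filter only through that population, so the count describes the 22 and not all 39. In 9 of the 22 every PDPN+ library exceeded every EpCAM+ library in CPM, a read count scaled by library size, as it did for 7.52% of all genes. Without PDPN+ V53175 and V53188, 21 members rose and 1 fell of 26 tested. The read filter follows the size of the smallest group, which was smaller in that run, so more members entered. The share of all genes that passed in it is not given here, so this count is not comparable with the main one.

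The contrast was also read within each treatment from the same fit. Among neratinib libraries 15 of the 22 rose in PDPN+ and 1 fell, against 18.9% and 19.9% of all genes. Among vehicle libraries 16 rose and 1 fell, against 17.7% and 15.3% of all genes.

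The 9 members without overlap between the populations are Hoxa5, Hoxa7, Hoxb4, Hoxb5, Hoxb6, Hoxc4, Hoxc8, Hoxc9 and Hoxd8, all but Hoxc9 from paralogues 4 to 8. For Hoxd8 this holds in CPM alone and rests on 1 read in the lowest PDPN+ and 1 in the highest EpCAM+ library, while in TPM N53184 (0.0130) lies below EpCAM+ V53188 (0.0223). The 4 members that did not pass, among them Hoxa3, Hoxa9 and Hoxa10, were all of cluster A. Within HoxA, then, the tested genes changed unequally, while all 7 tested HoxB genes, all 4 tested HoxC genes and the 1 tested HoxD gene rose.

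**Figure D3:**
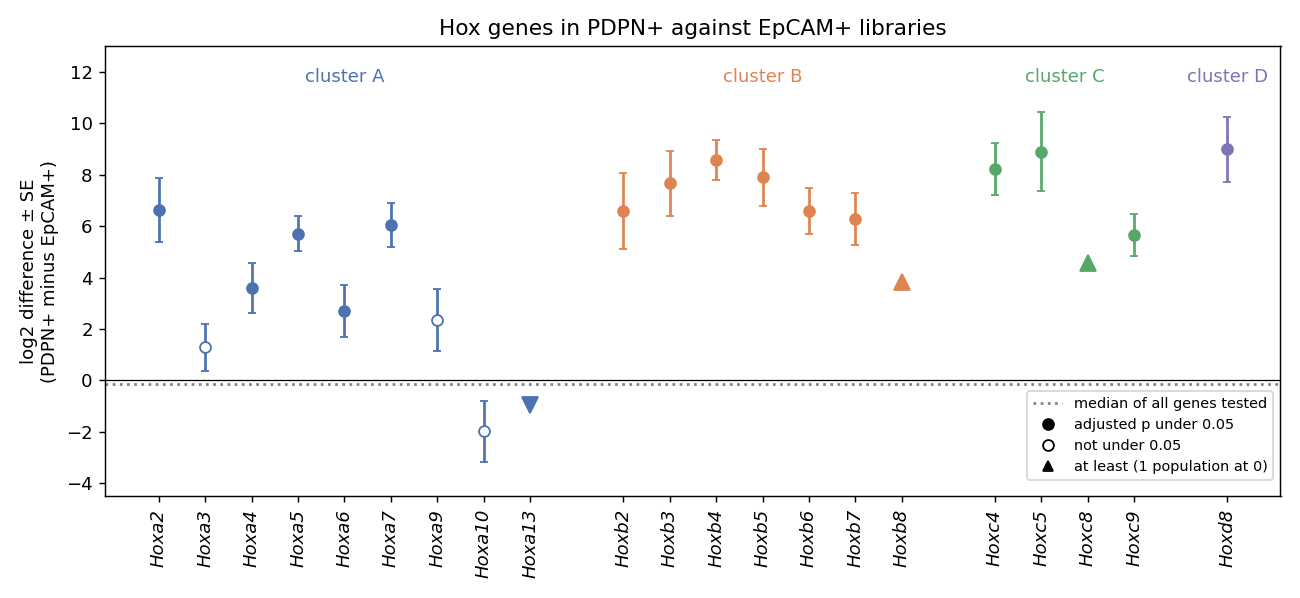
Log2 difference between PDPN+ and EpCAM+ libraries with its SE for Hox genes that were tested, ordered by cluster and paralogue number. Filled circles passed an adjusted p of 0.05, open ones did not, and triangles give the least difference for Hoxa13, Hoxb8 and Hoxc8, which had no read in one of the populations.

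The highest HoxA gene of PDPN+ libraries was Hoxa7 (ENSMUSG00000038236), a paralogue of thoracic level. Its levels were 8.38, 7.30, 8.28 and 8.74 TPM in PDPN+ neratinib and 13.4, 17.6, 7.25 and 11.8 TPM in PDPN+ vehicle libraries, against a range of 0 to 1.37 TPM (median 0.130) in EpCAM+ libraries. No PDPN+ library was under 7.25 TPM, and the populations did not overlap. Its log2 difference was 6.05 (SE 0.85, adjusted p = 1.02e-05).

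Hoxa5, which patterns the cervicothoracic skeleton and the mesenchyme of lung and foregut in mice, had 7.16, 0.747, 10.7 and 6.71 TPM in PDPN+ neratinib and 7.10, 4.77, 11.2 and 7.65 TPM in PDPN+ vehicle libraries. In EpCAM+ libraries it ranged from 0.0109 to 0.525 TPM. N53180 was the low PDPN+ library, just above the EpCAM+ range, and the other 7 had at least 4.77 TPM. The log2 difference was 5.70 (SE 0.68, adjusted p = 1.30e-06).

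Their neighbours in HoxA were uneven. Hoxa2, which specifies the second pharyngeal arch, had 5.04, 0.0194, 5.44 and 0.450 TPM in PDPN+ neratinib and 0.0377, 0.488, 2.63 and 0 TPM in PDPN+ vehicle libraries, and at most 0.0751 TPM in EpCAM+ libraries. Hoxa4, a cervical paralogue, stood at 0, 0.139, 0.241 and 0.702 TPM in PDPN+ neratinib and 0, 4.88, 5.48 and 0.921 TPM in PDPN+ vehicle libraries, against at most 0.378 TPM in EpCAM+ libraries. Both rose in PDPN+ (log2 6.64, SE 1.24, and 3.59, SE 0.97), although each was at 0 in at least 1 PDPN+ library. Hoxa4 did not pass among neratinib libraries alone in the same fit, nor with the mouse number as a replicate block (adjusted p = 0.0953). Hoxa6 rose by 2.70 on the log2 scale (SE 0.99, adjusted p = 0.0303), with no read in 4 of 8 PDPN+ libraries.

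HoxB had the largest mean share of PDPN+ Hox TPM. Hoxb7 led it, with 0.277, 5.04, 5.23 and 24.0 TPM in PDPN+ neratinib and 14.5, 11.1, 15.2 and 1.24 TPM in PDPN+ vehicle libraries, and at most 0.690 TPM in EpCAM+ libraries. Hoxb5, known for a role in enteric nervous system and vascular development, had 17.6, 1.64, 0.677 and 7.17 TPM in PDPN+ neratinib and 7.88, 1.75, 7.18 and 9.05 TPM in PDPN+ vehicle libraries, and at most 0.592 TPM in EpCAM+ libraries. N53178 had the most Hoxb5 and the least Hoxb7 of the 8 PDPN+ libraries.

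Hoxb6, a gene of lateral plate mesoderm, had 8.75, 5.41, 1.12 and 1.24 TPM in PDPN+ neratinib and 9.25, 2.33, 16.3 and 2.51 TPM in PDPN+ vehicle libraries, with at most 0.796 TPM in EpCAM+ libraries. Hoxb4, which expands blood stem cells when overexpressed, had 4.70, 3.57, 1.54 and 4.12 TPM in PDPN+ neratinib and 1.96, 2.05, 9.12 and 1.90 TPM in PDPN+ vehicle libraries, with at most 0.0727 TPM in EpCAM+ libraries. The populations did not overlap for either gene. The log2 differences were 6.28 (SE 1.00) for Hoxb7, 7.90 (SE 1.11) for Hoxb5, 6.58 (SE 0.88) for Hoxb6 and 8.56 (SE 0.79, adjusted p = 5.56e-08) for Hoxb4.

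Hoxb2 and Hoxb3, hindbrain paralogues, averaged 3.40 ± 4.88 and 2.68 ± 3.12 TPM in PDPN+ libraries (SD, n = 8) and 0.0332 ± 0.0783 and 0.0166 ± 0.0438 TPM in EpCAM+ libraries (n = 11). Both rose (log2 6.59, SE 1.49, and 7.66, SE 1.25), yet Hoxb2 had no read in N53180 and V53188 and 12.5 TPM in V53185. Hoxb8, the last HoxB gene with much signal, had 51, 0, 0 and 3 reads in PDPN+ neratinib and 2, 13, 32 and 149 reads in PDPN+ vehicle libraries, and none in the 11 EpCAM+ libraries. It was at least 14.1-fold higher in PDPN+ libraries, where the bound takes 3 reads in the EpCAM+ library of least depth. Hoxb1 and Hoxb9 reached at most 10 and 17 reads in a PDPN+ library, and Hoxb13 had none in any library.

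In HoxC the leading gene was Hoxc4, with 13.5, 8.06, 4.26 and 15.7 TPM in PDPN+ neratinib and 2.30, 4.88, 19.6 and 8.75 TPM in PDPN+ vehicle libraries, against at most 0.372 TPM in EpCAM+ libraries. All PDPN+ libraries lay above all EpCAM+ libraries, with a log2 difference of 8.21 (SE 1.02, adjusted p = 2.31e-06). Hoxc5 (log2 8.90, SE 1.52) ranged from 0 to 10.2 TPM in PDPN+ and reached at most 0.0356 TPM in EpCAM+ libraries. Hoxc9, which sets thoracic motor neuron identity, had at least 0.0785 TPM in every PDPN+ library and at most 0.0320 TPM in any EpCAM+ library (log2 5.65, SE 0.82, adjusted p = 1.52e-05).

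Hoxc8, a gene of brachial level, had 2, 90, 84 and 2 reads in PDPN+ neratinib and 2, 247, 142 and 4 reads in PDPN+ vehicle libraries and none in EpCAM+ libraries, which makes it at least 23.7-fold higher in PDPN+ by the same bound. Of HoxD, only Hoxd8 had enough reads for the test. It had 1.58, 0.451, 0.0130 and 1.86 TPM in PDPN+ neratinib and 0.0939, 2.20, 3.52 and 0.0681 TPM in PDPN+ vehicle libraries, against 1 read in all EpCAM+ libraries together (log2 8.98, SE 1.25, adjusted p = 3.00e-05).

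Hoxb4 and Hoxc4 have a promoter in the RefSeq table whose end abuts the transcript that carried their reads. Hoxb4-201 carried all Hoxb4 reads, 2212 in PDPN+ and 12 in EpCAM+ libraries. Hoxc4-201 carried 4348 reads or 91.1% of the Hoxc4 reads of PDPN+ libraries and all 40 in EpCAM+ libraries. The 250 bases before each start are shown 5′ to 3′ on the gene's strand (RefSeq, GRCm38.p6, a build other than the submitters'), because these members of clusters B and C separated the populations without overlap. Capitals mark matches on either strand to AGGTCA, a half-site of nuclear receptors such as those of retinoic acid, or GGGCGG, the GC box. The windows are chr11:96318017-96318266 and chr15:103034145-103034394, both on the plus strand.
Hoxb4 promoter: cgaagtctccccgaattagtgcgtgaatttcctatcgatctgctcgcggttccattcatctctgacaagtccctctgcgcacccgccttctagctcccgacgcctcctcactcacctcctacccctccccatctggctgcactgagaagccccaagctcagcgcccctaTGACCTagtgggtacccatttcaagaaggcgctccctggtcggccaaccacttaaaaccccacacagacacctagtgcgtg
Hoxc4 promoter: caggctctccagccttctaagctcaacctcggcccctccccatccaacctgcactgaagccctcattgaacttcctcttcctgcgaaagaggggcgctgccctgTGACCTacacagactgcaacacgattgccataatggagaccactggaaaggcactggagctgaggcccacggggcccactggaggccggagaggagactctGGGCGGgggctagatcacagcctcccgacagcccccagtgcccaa
Each window holds 1 AGGTCA match, and that of Hoxc4 also 1 GGGCGG match. Of the other members without overlap that the RefSeq table holds, Hoxa5 and Hoxa7 have no AGGTCA match and Hoxd8 has 1. Over the 24 promoters found for 22 of the 39 members, AGGTCA was present in 25.0%, CCAAT in 58.3%, GGGCGG in 41.7% and TATAAA in 16.7%, each searched on both strands, against 14.0%, 33.8%, 32.7% and 12.4% of all 32851 promoters of the same length. The median number of CpG in the 250 bases was 12.5 for the members and 6 for all promoters. A match is a stretch of letters and does not show that a factor binds there.

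The Hox RNA of EpCAM+ libraries was of another kind. Hoxa10, a paralogue of lumbar level that is needed in the uterus for implantation, was the leading Hox gene in all 11 libraries and took 27.7 to 79.4% of their Hox TPM. In PDPN+ libraries it had 0, 0, 0 and 3.69 TPM under neratinib and 0.0730, 2.25, 0.281 and 0 TPM under vehicle. In EpCAM+ libraries its levels were 0.980, 4.90, 9.89, 11.5 and 14.1 TPM under neratinib, and 0.385 to 4.84 TPM (median 1.64) under vehicle. Of the 8 PDPN+ libraries, 4 had no read, and N53194 and V53179 lay inside the EpCAM+ range.

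Hoxa10 thus averaged 0.787 ± 1.40 TPM in PDPN+ (SD, n = 8) and 4.91 ± 4.79 TPM in EpCAM+ libraries (n = 11), the reverse of most other members, but the test between populations did not pass (log2 -1.97, SE 1.18, adjusted p = 0.179). With the same 19 libraries it passed in limma voom (log2 -3.74, adjusted p = 0.0247) and on log2(TPM + 1) in limma (-1.64, adjusted p = 0.00267), but not in DESeq2 (adjusted p = 0.101). Single libraries also changed the call: without N53194 of the PDPN+ sort the log2 difference was -6.47 (adjusted p = 8.42e-04), and without V53179 it was -3.32 (adjusted p = 0.0420). The same 2 libraries alone held more than a few reads of Hoxa9 (88 and 275 reads, at most 4 in the other 6 PDPN+ libraries) and Hoxc10 (32 and 192 reads, none in the other 6). Their epithelial marker sums of 939 and 1109 TPM lay within the range of the other PDPN+ libraries, 286 to 1203 TPM, and came largely from keratin genes. Cdh1, the epithelial cadherin, had 0.530 TPM in N53194 and 1.98 TPM in V53179, against 1.62 TPM in N53184 and at most 0.0223 TPM in the other 5, and 175 to 930 TPM in EpCAM+ libraries. The part of epithelial RNA in their Hoxa10 was not tested. Hoxc10 had no read in any EpCAM+ library.

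In PDPN+ libraries 81.9% of the Hoxa10 reads were assigned to Hoxa10-203, annotated as a processed transcript, and 18.1% to the coding Hoxa10-201. In EpCAM+ libraries Hoxa10-203 took 64.2%, Hoxa10-201 30.1% and the coding Hoxa10-202 1.77%. Salmon divides reads between overlapping transcripts by estimate, so these shares are approximate. The table holds a promoter for each coding transcript, shown because Hoxa10 carries the EpCAM+ pattern. The window of Hoxa10-201, with 58 reads in PDPN+ and 836 in EpCAM+ libraries, is chr6:52240855-52241104, and that of Hoxa10-202, with 0 reads in PDPN+ and 49 in EpCAM+ libraries, is chr6:52234940-52235189, both on the minus strand of GRCm38.p6. Capitals mark a match to GGGCGG in the first and matches to TATAAA and CCAAT, both on the opposite strand, in the second.
Hoxa10-201 promoter: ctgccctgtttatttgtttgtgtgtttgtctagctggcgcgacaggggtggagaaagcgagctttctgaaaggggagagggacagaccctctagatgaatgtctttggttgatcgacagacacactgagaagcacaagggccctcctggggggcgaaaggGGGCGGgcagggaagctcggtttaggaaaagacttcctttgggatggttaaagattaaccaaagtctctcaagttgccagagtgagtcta
Hoxa10-202 promoter: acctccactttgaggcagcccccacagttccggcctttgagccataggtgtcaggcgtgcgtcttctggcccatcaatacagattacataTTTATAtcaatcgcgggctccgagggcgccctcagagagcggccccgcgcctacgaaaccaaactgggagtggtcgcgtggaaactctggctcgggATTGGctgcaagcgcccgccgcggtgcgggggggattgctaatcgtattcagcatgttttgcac
The windows hold 7 and 20 CpG.

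Hoxa13, a gene of the distal limb, genital tract and hindgut, was the 1 member that fell in PDPN+. It had no read in the 8 PDPN+ libraries, against 23, 10, 16, 12 and 13 reads in EpCAM+ neratinib libraries and 0 to 22 reads in EpCAM+ vehicle libraries (0 to 0.303 TPM, median 0.0879). It was at least 1.91-fold higher in EpCAM+ libraries when 3 reads are taken in the PDPN+ library of least depth (adjusted p = 3.52e-04). The level was low in both populations. Hottip, a non-coding RNA transcribed beside Hoxa13 that is known to act on the 5′ HoxA genes, was likewise seen in one population alone, with 0 TPM in all 8 PDPN+ libraries and 0.216 to 1.06 TPM in the 11 EpCAM+ libraries. It fell in PDPN+ (adjusted p = 1.45e-06) and was at least 8.27-fold higher in EpCAM+ libraries.

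At the other end of HoxA, Hoxa3, a gene of thymus and parathyroid development, had reads in both populations. It had 0.402, 0, 3.73 and 0.622 TPM in PDPN+ neratinib and 2.67, 0.516, 3.54 and 0.157 TPM in PDPN+ vehicle libraries. In EpCAM+ neratinib libraries it had 0.266, 0.381, 3.29, 2.13 and 1.96 TPM, and in EpCAM+ vehicle libraries 0.0403 to 2.68 TPM (median 0.258). The populations overlapped throughout (log2 1.29, SE 0.91, adjusted p = 0.257). Hoxa9, a target of the MLL methyltransferase in leukaemia, averaged 0.709 ± 1.62 TPM in PDPN+ and 0.151 ± 0.165 TPM in EpCAM+ libraries (log2 2.35, SE 1.21, adjusted p = 0.116).

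**Figure D4:**
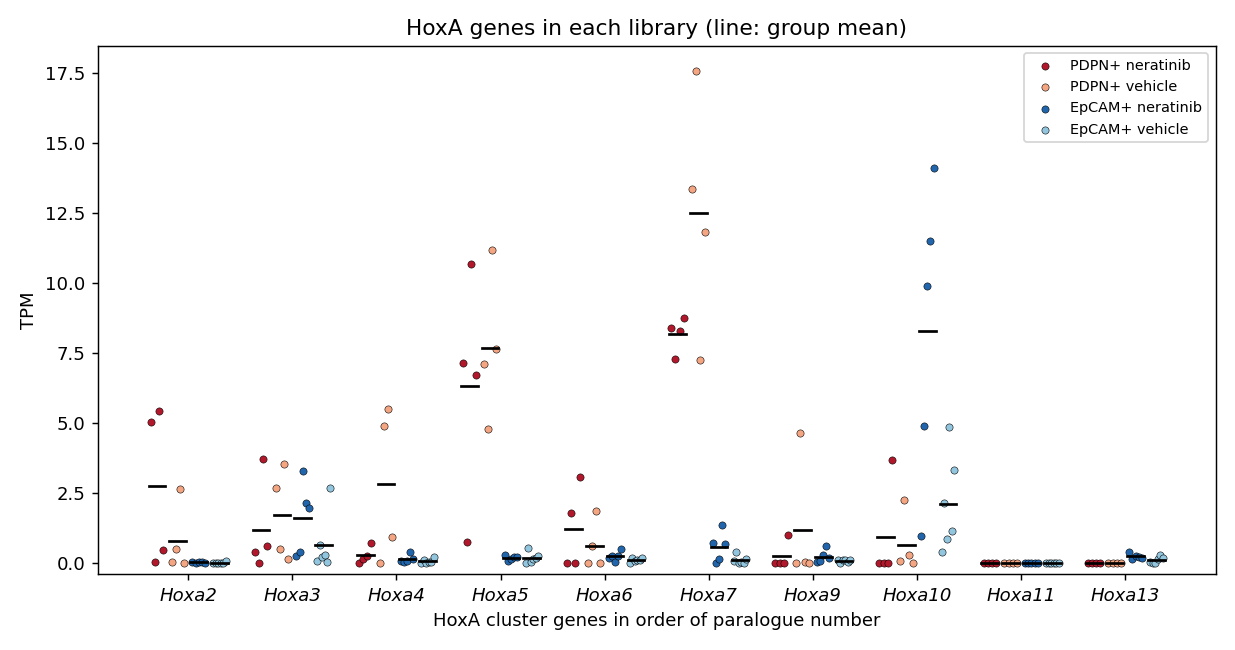
TPM of HoxA genes in every library, with the group means as lines. Hoxa5 and Hoxa7 are high in PDPN+ libraries, Hoxa10 is high in EpCAM+ libraries with neratinib libraries up to 14.1 TPM, and the ranges of Hoxa3 overlap between all 4 groups.

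Fibroblast RNA was set beside the Hox signal of EpCAM+ libraries. The mean TPM of the 8 fibroblast markers in EpCAM+ libraries was 0.109 to 0.538% of that in PDPN+ libraries. The same percentage was 0.406 for Hoxb4, 0.545 for Hoxc4, 0.166 for Hoxd8, 2.70 for Hoxa5 and 3.13 for Hoxa7. It was 18.6 for Hoxa6, 21.2 for Hoxa9, 74.7 for Hoxa3 and 624 for Hoxa10. Among further HoxA genes it was 1.04 for Hoxa2 and 6.28 for Hoxa4. In HoxB it was 0.978 for Hoxb2, 0.620 for Hoxb3, 1.07 for Hoxb5, 2.62 for Hoxb6, 1.40 for Hoxb7 and 0 for Hoxb8. In HoxC it was 0.170 for Hoxc5, 11.0 for Hoxc6, 0 for Hoxc8 and 1.46 for Hoxc9. Hoxa6, Hoxa9, Hoxa3, Hoxa10 and Hoxc6 lie far above the markers. Hoxa2, Hoxa4, Hoxa5, Hoxa7, Hoxb2, Hoxb5, Hoxb6, Hoxb7 and Hoxc9 also lie above them, by less. Hoxb3, Hoxb4, Hoxc4, Hoxc5 and Hoxd8 lie within or near their range. The part of fibroblast RNA in the EpCAM+ values was not tested further.

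The 17 members without a test were Hoxa11, Hoxb1, Hoxb9, Hoxb13, Hoxc6, Hoxc10, Hoxc11, Hoxc12, Hoxc13 and all HoxD genes but Hoxd8. Of these, Hoxa11, Hoxb13, Hoxc11, Hoxc12, Hoxd1 and Hoxd13 had no read in any of the 19 libraries, and Hoxc13 and Hoxd12 had 2 reads each in 1 library. Others were high in single PDPN+ libraries. Hoxd4 had 455 of its 562 PDPN+ reads in N53178, where Hoxd3 had 200 of 214 and Hoxd9 127 of 150. HoxD took 22.2% of the Hox TPM of that library and 0.0529 to 4.02% in the other 7. N53178 also had the highest sum of the 4 lymphatic endothelial markers, 900 TPM, mostly from Ccl21a at 895 TPM, against 0.679 to 79.4 TPM in the other PDPN+ libraries. Whether those cells have a part in its HoxD reads was not tested. Hoxd11 had 246 of 257 PDPN+ reads in V53175, and Hoxc6 had 159 in V53185 and 100 in V53179. All Hoxd11 reads of PDPN+ libraries were assigned to Hoxd11-201, annotated as a processed transcript, and none to the coding Hoxd11-202. Of the Hoxd3 reads 96.1% were assigned to Hoxd3-206, annotated as a retained intron.

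Levels were uneven between PDPN+ libraries. Of the 39 members, 15 had no read in one PDPN+ library and at least 100 in another. Among the 22 tested it was 9, and among all genes tested it was 23.5%. The median coefficient of variation of CPM over the tested members was 1.21 in PDPN+ neratinib and 0.927 in PDPN+ vehicle libraries, and 0.807 and 0.843 over all genes. It was 0.975 in EpCAM+ neratinib and 1.44 in EpCAM+ vehicle libraries, and 0.333 and 0.339 over all genes. Low counts vary more than high ones, and the labels' protocols describe a low-input kit with more PCR cycles for smaller samples. The part of either in these figures was not tested. TPM also moves with the transcript that reads are assigned to: Hoxb3 had 9.19 TPM from 99 reads in V53188 and 5.34 TPM from 311 reads in N53184.

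Antisense genes overlap many members by gene span, introns included, and the kit is not stated to mark strand. Where a member and its antisense partner share sequence, their reads cannot be told apart by strand. How much sequence they share was not examined. Within the HoxA span 10 other annotated genes held 5304 reads in PDPN+ and 2022 in EpCAM+ libraries, beside 10945 and 4442 reads of the members. In HoxB the others held 700 and 83 reads, and in HoxC none. In HoxD they held 768 and 8 reads, beside 1837 and 10 reads of the members. Genes with reads overlapped 16 members by span, which does not show that they share exons. Of the 7 cluster non-coding genes tested, 4 rose in PDPN+ (Hoxaas2, Hoxaas3, Hoxb3os and Hoxd3os1), 1 fell (Hottip) and 2 did not pass. Hoxaas2, antisense to Hoxa3, rose by 3.41 on the log2 scale (SE 0.91, adjusted p = 0.00443). Hotairm1, known for a role in myeloid cells, averaged 17.2 ± 15.8 TPM in PDPN+ and 10.0 ± 8.60 TPM in EpCAM+ libraries (log2 1.28, SE 0.67, adjusted p = 0.121). Hotair, the HoxC antisense RNA of distal skin fibroblasts, had no read in any library.

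Further lists describe the genes around the Hox code. Their counts stand beside the 24.3% of all genes that rose and the 25% that fell. Up to 3 members of each were named by smallest p, and those beyond, here Ezh2, Barx1, Tlx1, Gata4, Foxf2, Tbx4, Tbx5, Msx1, Alx4, Pitx1, Emx2, En1, Rarb, Cyp26a1, Phf19, Hotairm1 and Hotair, were chosen after their values were seen. Hox proteins bind DNA with TALE-class homeodomain partners, the Pbx, Meis and Pknox (Prep) proteins. All 9 were tested, 5 rose in PDPN+, none fell and 4 did not pass, with a median log2 difference of 0.77. Meis1 rose most clearly (log2 4.82, SE 0.24, adjusted p = 2.05e-11), at 71.9 ± 24.3 TPM in PDPN+ and 3.34 ± 1.18 TPM in EpCAM+ libraries. Pknox2 rose by 7.81 (SE 1.09) and Meis2 by 0.75 (SE 0.18).

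The ParaHox genes are the sister family of the Hox genes and are used in the gut endoderm. Of 6 listed, 2 had reads enough, and both fell in PDPN+. Pdx1, the master gene of pancreas formation, had no read in PDPN+ libraries and 47.1 ± 11.3 TPM in EpCAM+ libraries, at least 550-fold higher in EpCAM+. Cdx2, a gene of intestine that also activates posterior Hox genes in the embryo, had 0.00586 ± 0.00819 TPM in PDPN+ and 6.96 ± 5.12 TPM in EpCAM+ libraries (log2 -10.09, SE 0.88, adjusted p = 1.33e-07).

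Transcription factors of other kinds also mark mesenchyme by body site. Of 13 tested factors of visceral and splanchnic mesenchyme 9 rose in PDPN+, 2 fell and 2 did not pass, with a median log2 difference of 5.73. Wt1, of the coelomic lining and its mesenchyme, stood at 73.6 ± 26.6 TPM in PDPN+ and 0.195 ± 0.155 TPM in EpCAM+ libraries. Wt1 is also a mesothelial gene, and the mesothelial gene Upk3b stood at 203 ± 103 TPM in the same PDPN+ libraries and 1.77 ± 1.54 TPM in EpCAM+. The 6 mesothelial markers listed went the other way when summed, with 450 to 1943 TPM in PDPN+ and 4692 to 7635 TPM in EpCAM+ libraries. Krt19, counted among the epithelial markers too, is on that list, at 358 ± 167 TPM in PDPN+ and 5562 ± 949 TPM in EpCAM+. A mesothelial part in the PDPN+ values was not tested. Barx1, of stomach and spleen mesenchyme, stood at 12.6 ± 10.3 TPM in PDPN+ and 0.0118 ± 0.0305 TPM in EpCAM+ libraries. Nkx2-3, of gut and spleen mesenchyme, stood at 13.8 ± 12.0 TPM in PDPN+ and 0.0555 ± 0.0659 TPM in EpCAM+. Tlx1, a spleen gene, was seen almost wholly in N53180, at 9.73 TPM. Foxf2 and Gata4 fell in PDPN+ (log2 -8.23, SE 1.04, and -3.55, SE 1.17).

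Of 10 tested factors of limb, skin and cranial mesenchyme 7 rose, 2 fell and 1 did not pass, with a median of 4.22, or 4.09 with Emx2, which had no EpCAM+ read, at its least difference. Twist1 and Prrx1 rose by 10.95 (SE 0.79) and 10.52 (SE 0.76), at 14.9 ± 7.23 and 33.0 ± 16.6 TPM in PDPN+ libraries. Both are used by fibroblasts of many sites. Prrx2 rose by 2.74 (SE 0.38), at 14.8 ± 6.65 TPM in PDPN+ and 2.92 ± 1.01 TPM in EpCAM+ libraries. Msx1, a gene of the limb bud and skull, rose by 7.77 (SE 1.23), at 9.45 ± 10.1 TPM in PDPN+ libraries. Alx4 (log2 4.28, SE 1.08), the hindlimb gene Pitx1 (log2 4.15, SE 1.47) and Emx2 rose too, at lower levels of at most 1.78, 1.54 and 2.48 TPM in a PDPN+ library. Pitx1 had 0 TPM in 5 of the 8. Tbx4 and Tbx5 were at most 0.380 and 0.0321 TPM in a PDPN+ library, and Hoxa11, Hoxd13 and Hoxa13, which pattern the outer limb, had no read there. Of the other high-numbered HoxD genes, Hoxd9, Hoxd10 and Hoxd11 had 150, 12 and 257 PDPN+ reads, mostly in single libraries, and Hoxd12 none. En1, among the 2 that fell, stood at 0.145 ± 0.171 TPM in PDPN+ and 9.09 ± 2.70 TPM in EpCAM+ libraries.

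Retinoic acid switches on Hox genes from the low-numbered end. Of 12 tested genes of its synthesis, binding and breakdown 6 rose in PDPN+, 2 fell and 4 did not pass, with a median log2 difference of 2.30. The synthesis enzymes went opposite ways: Aldh1a2 rose (104 ± 51.3 TPM in PDPN+, 1.24 ± 1.20 TPM in EpCAM+; log2 6.84, SE 0.61), while Aldh1a3 fell (18.7 ± 14.1 TPM in PDPN+, 452 ± 123 TPM in EpCAM+; log2 -4.87, SE 0.31). The receptor gene Rarb and the breakdown enzyme Cyp26a1, both direct retinoic acid targets, rose by 4.65 (SE 0.83) and 5.43 (SE 0.75).

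Chromatin regulators keep Hox genes on or off. Of 11 trithorax and MLL genes 2 rose in PDPN+ (Psip1, log2 1.88, and Kmt2a, log2 0.82), 3 fell and 6 did not pass (median -0.74). Among the 3 that fell, Kdm6a had the smallest p (log2 -1.75, SE 0.38). Of 18 Polycomb genes 1 rose, 3 fell and 14 did not pass (median -0.24). Ezh2, the methyltransferase of the repressive complex, had 20.3 ± 11.2 TPM in PDPN+ and 22.6 ± 8.00 TPM in EpCAM+ libraries (log2 -0.21, SE 0.35, adjusted p = 0.650). Cbx2 fell by 3.95 on the log2 scale (SE 1.07), and Phf19 rose by 2.89 (SE 1.08).

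The study's own question was the effect of neratinib within each population. In PDPN+ cells 18 members were tested among 14437 genes, and none passed in edgeR, DESeq2 or limma voom. No gene of the 14437 passed in edgeR (0% called). At an unadjusted p under 0.05 it was 1 member, Hoxc9, and 2.29% of all genes. No member had 4 neratinib libraries all above or all below the 4 vehicle libraries, which 2.27% of all genes did. The median log2 difference was -0.16 over the 18 members and 0.06 over all genes, and 7 of 18 members and 52.8% of all genes had a positive one. Without V53175 and V53188 none of 25 members tested passed.

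Hoxc9 had 0.156, 0.123, 0.0785 and 0.0985 TPM in PDPN+ neratinib and 0.105, 1.44, 0.574 and 2.88 TPM in PDPN+ vehicle libraries. The neratinib libraries were low throughout, and the vehicle library V53175 lay among them. The log2 difference was -3.44 (SE 1.38, unadjusted p = 0.0303, adjusted p = 1.00). Hoxa4 and Hoxc5 came next, at -3.19 (SE 1.86) and -2.49 (SE 2.05). For Hoxc5 the neratinib libraries had 0.0121, 0.0111, 1.59 and 0.533 TPM and the vehicle libraries 0, 4.26, 3.14 and 10.2 TPM.

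The median SE of the 18 members was 1.62 on the log2 scale, against 1.06 over all genes, which limits what 4 libraries a group can show for them. The least uncertain members were Hoxa7 (log2 -0.41, SE 0.81) and Hoxc4 (0.38, SE 0.88). In all 4 vehicle libraries 7 members had at least 1 TPM. Of these, Hoxa7, Hoxb4, Hoxb6 and Hoxc4 had so in all 4 neratinib libraries too, while Hoxa5 was at 0.747 TPM in N53180, Hoxb5 at 0.677 TPM in N53184 and Hoxb7 at 0.277 TPM in N53178. Paralogues 4 to 8 took 82.6 ± 12.1% of Hox TPM in neratinib and 83.4 ± 4.27% in vehicle libraries (SD, n = 4 each).

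In EpCAM+ cells only 5 members had enough reads, all of HoxA, with Hoxa3, Hoxa5, Hoxa10 and Hoxa13 among them. None passed in edgeR, DESeq2 or limma voom, nor did any of the 17200 genes in edgeR (0% called). At an unadjusted p under 0.05 it was 1 member, Hoxa10, and 3.05% of all genes. The log2 difference of Hoxa10 was 1.90 (SE 0.69, unadjusted p = 0.0177, adjusted p = 0.999). The neratinib libraries N53184, N53193 and N53194, at 9.89 to 14.1 TPM, lay above all 6 vehicle libraries. N53180 at 4.90 TPM lay just above the highest of them, V53185 at 4.84 TPM. N53178 at 0.980 TPM lay in the lower part of the vehicle range, so the groups overlapped. For all genes, 0.238% had groups that did not overlap, and no Hox member did. Leaving out any 1 library gave 1.65 to 2.30, and leaving out N53178, V53175 and V53176 together gave 1.98 (unadjusted p = 0.00725, adjusted p = 0.973). Those 3 libraries had the highest islet marker sums, and acinar sums differed between the treatments in median. The part of either in the Hoxa10 values was not tested.

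Hoxa3 differed by 1.17 (SE 0.92), Hoxa13 by 1.11 (SE 0.75) and Hoxa5 by -0.14 (SE 0.72), all with an adjusted p of 0.999. The log2 difference was positive in 4 of the 5 members and in 49.8% of all genes, and its median was 1.11 over the 5 members and -0.000856 over all genes. Hottip had 0.470 ± 0.155 TPM in EpCAM+ neratinib (SD, n = 5) and 0.698 ± 0.354 TPM in EpCAM+ vehicle libraries (n = 6), so its mean was lower under neratinib, and that of Hoxa10 higher. Among the TALE, ParaHox, chromatin, mesenchyme, retinoic acid and non-coding lists no gene passed between treatments in edgeR either. An unadjusted p under 0.05 was found for 4, 3 of them in PDPN+ cells. It was found for 2.29% of all genes in PDPN+ and 3.05% in EpCAM+ cells. Tested in PDPN+ were 9 TALE, 0 ParaHox, 11 trithorax and MLL, 17 Polycomb, 11 visceral, 5 limb, 6 non-coding and 12 retinoic acid genes. In EpCAM+ these were 8, 2, 11, 18, 7, 4, 5 and 11.

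In PDPN+ cells Crabp2, which carries retinoic acid to its receptors, had 14.2, 9.84, 15.1 and 8.26 TPM in neratinib and 87.2, 115, 65.8 and 131 TPM in vehicle libraries (log2 -3.02, SE 0.57, unadjusted p = 0.000240, adjusted p = 1.00). Aldh1a3, the synthesis enzyme named above, had 7.83, 7.14, 9.28 and 9.21 TPM in neratinib and 14.4, 21.9, 36.7 and 43.2 TPM in vehicle libraries (log2 -2.10, SE 0.62, unadjusted p = 0.00616, adjusted p = 1.00). Foxf1, a factor of splanchnic mesenchyme, had 0.0804, 0.0449, 0.0356 and 0.471 TPM in neratinib and 3.83, 1.41, 2.12 and 7.29 TPM in vehicle libraries (log2 -4.70, SE 1.61, unadjusted p = 0.0138, adjusted p = 1.00). For these 3 genes, picked by their small p, every neratinib library lay below every vehicle library in TPM. Of all genes tested in PDPN+ cells, 2.27% had groups that did not overlap in CPM, in either direction. In EpCAM+ cells Foxf2 had 1.83 to 3.27 TPM (median 2.76) in neratinib and 3.04 to 4.34 TPM in vehicle libraries, which overlap (log2 -0.63, SE 0.19, unadjusted p = 0.00640, adjusted p = 0.999).

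**Figure D5:**
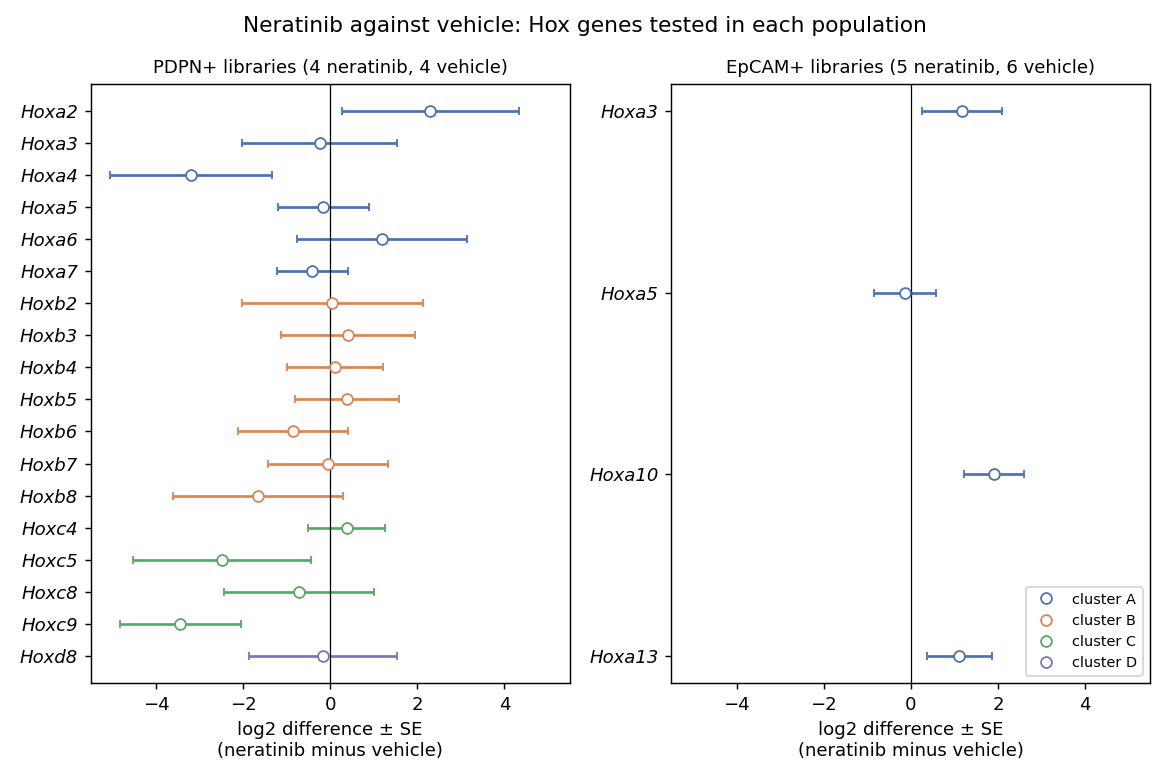
Log2 difference between neratinib and vehicle libraries with its SE for Hox genes tested in PDPN+ (left) and in EpCAM+ libraries (right). None passed an adjusted p of 0.05, and the largest, Hoxc9 at -3.44 and Hoxa10 at 1.90, have SEs of 1.38 and 0.69.

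Whether the neratinib effect differed between the populations was tested as an interaction over all 19 libraries. None of the 22 members passed in edgeR (smallest adjusted p = 0.212), against 0.0662% of all genes. At an unadjusted p under 0.05 there were 4 members, Hoxa4, Hoxb3, Hoxb6 and Hoxc9, and 11.2% of all genes. The lowest was Hoxb6 (log2 -4.76, SE 1.55, unadjusted p = 0.00633), which passed in DESeq2 alone (adjusted p = 0.0220). In EpCAM+ libraries Hoxb6 had 12, 2, 8, 30 and 5 reads under neratinib and at most 3 under vehicle, so this value rests on few reads.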

How the data were processed

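RNA was sequenced from 19 sorted mouse libraries with a low-input kit whose PCR cycles depended on RNA amount, per the labels' protocols. Salmon 1.9.0 and the build GRCm39 (mm39) are named in the submitters' processing notes. Neither transcriptome release nor strand setting is stated. Per the file headers, the deposited tables hold estimated counts, TPM, length and effective length for 147828 transcripts per library. Other per-transcript columns were not used.

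Transcripts were matched by unversioned ID to GENCODE M21 names (GRCm38). 137063 matched, 10765 did not, and the 51707 genes received the summed TPM and the summed expected counts, rounded to whole reads, that the authors deposited. Reads of unmatched transcripts (4.07 to 8.96% in PDPN+, 1.77 to 2.26% in EpCAM+) stayed out. No pair of libraries was identical. Gene reads per library ran from 30.3 to 75.4 M. Floors are 3 reads and cover counting error only. Nothing in the labels says that libraries are separate animals beyond their numbers, so p-values measure the spread between libraries.

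Tests used edgeR 4.0.16 in R 4.3.3 (robust quasi-likelihood, TMM, filterByExpr with a minimum count of 10, Benjamini-Hochberg over all genes, threshold 0.05). Alternatives used DESeq2 1.42.0, limma 3.58.1 (voom, and log2(TPM + 1) for genes of at least 1 TPM), other filters and left-out libraries. The pipeline was tested on simulated data. The population fit held all 19 libraries in 4 groups, and each neratinib fit its own population.

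Members and lists were chosen with earlier results of these data known. Chosen for closer description were the 8 highest PDPN+ members, the 4 highest EpCAM+ members and the 3 with the smallest p in each neratinib comparison. Their values are given for every library of a group, or as a range or mean. The 5 largest differences each way between populations, where so many passed, are given as a log2 difference or as the least difference. Other genes are given by range, and some genes are not reported here. Promoter sequences come from a RefSeq table that held 22 of the 39 members.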

Additional observations from a re-analysis of the deposited data

Results flagged for a closer look

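Of 76 groups of 4 to 6 libraries examined, 20 held a library far from the rest by Dixon's gap criterion. For normally distributed values about 1 in 20, or 3.8, would be flagged. These TPM hold many zeros and low values, so that figure does not apply to them. A group with reads in 1 library alone is flagged whatever its level, as for Hoxd8 in EpCAM+ V53188 from 1 read. In PDPN+ neratinib libraries, N53184 had 55.2% of its Hox TPM in HoxA (23.7 to 27.5% in the others) and 3.73 TPM of Hoxa3. N53194 had 3.69 TPM of Hoxa10 with none in the others, and N53178 had 1.63 TPM of Hoxb8. In PDPN+ vehicle libraries, V53185 had 9.12 TPM of Hoxb4 (1.90 to 2.05 TPM in the others) and 12.5 TPM of Hoxb2. V53179 had 2.25 TPM of Hoxa10, and V53175 had 89.8% of its Hox TPM in paralogues 4 to 8 (80.8 to 82.0% in the others).

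In EpCAM+ neratinib libraries, N53193 had 0.690 TPM of Hoxb7, 0.592 TPM of Hoxb5 and 0.378 TPM of Hoxa4. In EpCAM+ vehicle libraries, V53176 had 0.404 TPM of Hoxa7, 0.372 TPM of Hoxc4, 0.263 TPM of Hoxb2 and 0.0356 TPM of Hoxc5. V53192 had 2.68 TPM of Hoxa3, V53185 had 0.0598 TPM of Hoxb5 and 0.0969 TPM of Hoxb6, and V53188 had 0.0283 TPM of Hoxc9 and 0.0223 TPM of Hoxd8. The fibroblast markers summed to 24.4 TPM in N53193 and 65.5 TPM in V53176, within the range of EpCAM+ libraries.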

How the results depend on the processing

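The count of members that passed between PDPN+ and EpCAM+ stayed within 1.5 times of 18 under DESeq2 (18), DESeq2 size factors (18), voom (18), log2(TPM + 1) (13 of 14 tested), no filter (24 of 33 tested) and on leaving out any 1 library (17 to 19). It was 8 of 11 tested with vehicle libraries alone and 8 of 11 tested with neratinib libraries alone, where fewer libraries and members entered. With the mouse number as a replicate block it was 16, 15 higher and 1 lower, and Hoxa4 (log2 3.64) no longer passed (adjusted p = 0.0953). Of all genes, 49.3% passed in the main fit. Their share in the other runs is not given here, so these counts describe the members alone. Same-numbered libraries did not deviate together (8 pairs, r -0.107 to 0.0306, 0 over 0.1), so the numbers were not used as pairs. In the interaction DESeq2 called 1 member, and the cause was not tested. Both neratinib comparisons gave 0 members under each alternative run, and they and the interaction gave 0 to 0 on leaving out any 1 library. Hoxa10 passed between populations under voom (-3.74, adjusted p = 0.0247) and on log2(TPM + 1) (-1.64, adjusted p = 0.00267). The mean HoxA share was 31.0 to 35.5% in PDPN+ and 91.2 to 92.7% in EpCAM+ on leaving out 1 library. Few reads per member limit all neratinib comparisons.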
